A study of Mus musculus with 4 samples.

Results

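The genes of the CD4 and CD8 coreceptors and of factors that control them were examined in DN4 thymocytes in which Ikaros could be deleted. The set held 8 genes of the 19938 that the array measured with a probe set of exactly 1 gene symbol, and each of the 8 had a single such probe set. Cd4, Cd8a and Cd8b1 encode the coreceptor chains, and Runx3, Cbfb, Zbtb7b, Satb1 and Patz1 encode nuclear factors that act on them. They were named by role, with earlier results of these data known, and the probe set with the highest mean stood for a gene.

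Each of 4 mice gave sorted DN4 cells and 1 Affymetrix mouse gene array, and all carried floxed alleles of the Ikaros gene Ikzf1 and received tamoxifen. The 2 Cre+ mice, numbers 129 and 135, were Ikf/f Rosa26-CreERT2+, so that tamoxifen could activate a Cre recombinase expressed from the broadly active Rosa26 locus. The 2 Cre- mice, numbers 131 and 137, were Ikf/f without that recombinase. Tamoxifen was injected at 50 mg/kg daily for 4 days and cells were taken 24 h after the last dose. Ages and sorting gates were not given in the sources used here, and the treatment field repeats the Cre+ genotype for all 4 samples, so the grouping follows the titles and the design text. The design text also reports a western blot in which Cre+ cells had lost the Ikaros protein. The deletion of Ikaros and the presence of active CreERT2 cannot be told apart in this design, because only Cre+ mice had the recombinase.

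CD4 and CD8 are surface proteins that bind MHC class II and class I molecules beside the T cell receptor and bring the kinase LCK to it. Thymocytes at the DN4 stage lack both proteins at the surface, then turn on CD8 and CD4 as they become double-positive cells, and later keep one of them. RUNX proteins, which pair with the CBFβ subunit, act at the Cd4 silencer and at the Cd8 enhancers, and Ikaros itself has been found bound at both loci in mouse thymocytes. ThPOK, the product of Zbtb7b, holds the CD4 fate, and SATB1 and MAZR, the product of Patz1, bind regulatory elements of the coreceptor genes and of the ThPOK locus.

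Cd4 had higher values in Cre+ cells, while Cd8a, Cd8b1 and Runx3 had lower values, and for these 4 genes both Cre+ mice lay outside the range of both Cre- mice. The differences on the log2 scale were 0.54 for Cd4, -0.61 for Cd8a, -0.27 for Cd8b1 and -0.69 for Runx3. Satb1 was also separated between the groups, with a difference of 0.13. Zbtb7b, Cbfb and Patz1 overlapped between the groups. Separation of the groups was common, as it was seen for 36.4% of all 19938 genes (16.1% higher and 20.3% lower). None of the 8 genes passed an adjusted p of 0.05 in limma, neither over all 35556 probe sets, where 0 passed (0% called), nor among the 21789 probe sets with 1 gene symbol, where 266 passed (1.22% called, 0.936% higher and 0.285% lower). The second of these is called the single-symbol test below. These are differences in the RNA of sorted cell pools, in which fewer cells that express a gene and less RNA per cell cannot be told apart.

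**Figure D1:**
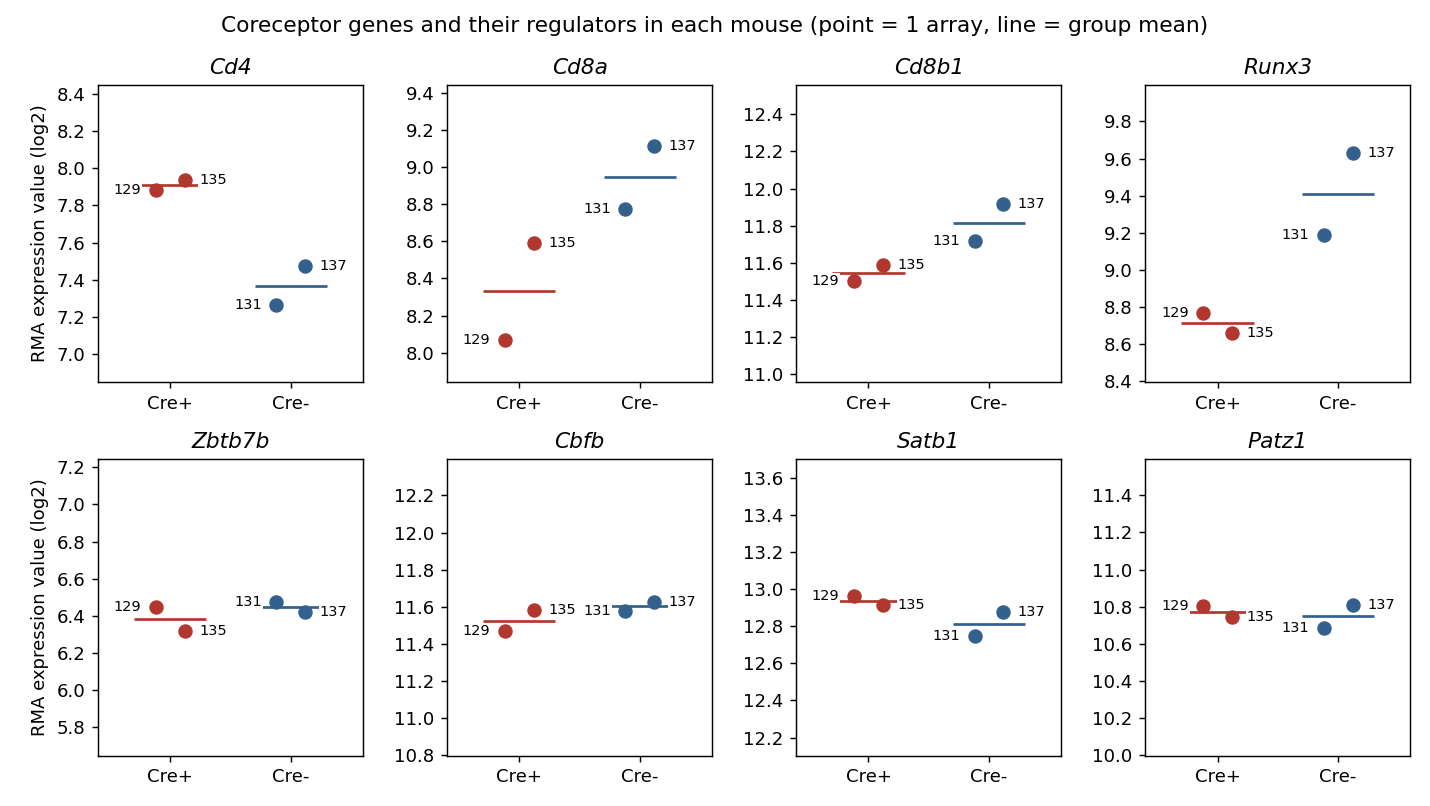
RMA values (log2) of the 8 genes in each mouse, with Cre+ mice left and Cre- mice right in each panel, points for single arrays and lines for group means. All panels span the same number of log2 units. Cd4 lies higher in both Cre+ mice, at 7.88 and 7.94, and Cd8a, Cd8b1 and Runx3 lie lower in both.

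The coreceptor genes were compared first. Cd4 was at 7.88 (mouse 129) and 7.94 (mouse 135) with Cre+, against 7.26 (mouse 131) and 7.47 (mouse 137) with Cre-. The Cre+ mice lay closer to each other, 0.05 apart, than the Cre- mice, which lay 0.21 apart. The difference was 0.54 (SE 0.11, 95% interval 0.25 to 0.83), a 1.45-fold higher value. Its adjusted p was 0.408 in limma over all probe sets and 0.0635 among probe sets with 1 gene symbol. The array measures the Cd4 transcript, whereas the DN4 stage is defined by the absence of the surface protein.

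Cd8a encodes the alpha chain, which can form a homodimer or pair with the beta chain. It was at 8.07 (mouse 129) and 8.59 (mouse 135) with Cre+, against 8.77 (mouse 131) and 9.12 (mouse 137) with Cre-. The groups did not overlap, but the gap between mice 135 and 131 was smaller than the 0.52 between the 2 Cre+ mice. The difference was -0.61 (SE 0.21, 95% interval -1.16 to -0.06), with an adjusted p of 0.699 in limma over all probe sets and 0.216 among probe sets with 1 gene symbol. It was -0.35 without mouse 129, whose value was the lowest of the 4. Cd8b1, the gene of the beta chain found on conventional CD8 T cells, was at 11.50 (mouse 129) and 11.59 (mouse 135) with Cre+, against 11.72 (mouse 131) and 11.91 (mouse 137) with Cre-. Its difference of -0.27 (SE 0.08, 95% interval -0.47 to -0.07) had an adjusted p of 0.565 in limma over all probe sets and 0.137 among probe sets with 1 gene symbol. Cd8b1 differed by -0.17 without mouse 137.

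Cd8a and Cd8b1 are neighbours on chromosome 6 in the RefSeq annotation, with no other protein-coding gene between them, and share a group of enhancers. Both were lower in Cre+ cells, by different amounts. Within each array, Cd8a minus Cd8b1 was -3.43 (mouse 129) and -2.997 (mouse 135) with Cre+, against -2.94 (mouse 131) and -2.80 (mouse 137) with Cre-, so that the difference of Cd8a exceeded that of Cd8b1 by 0.34 in size (-0.34, Cre+ minus Cre-). This value was -0.13 without mouse 129 and -0.56 without mouse 135. An exact two-sided permutation test over the 4 mice gave p = 0.333, the smallest that 2 against 2 mice allow.

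Cd4 was then set against the CD8 genes. Within each array, Cd4 minus the mean of Cd8a and Cd8b1 was -1.90 (mouse 129) and -2.16 (mouse 135) with Cre+, against -2.98 (mouse 131) and -3.04 (mouse 137) with Cre-. Levels of different probe sets are not on a common scale, so only the change of this value between groups is read. That change was 0.98 in favour of Cd4, and it restates the differences already given for these genes. Cd4 was higher in both Cre+ mice and both CD8 genes were lower, each without overlap. The exact two-sided permutation test could therefore only give its smallest p of 0.333, which adds no support. The change ranged from 0.85 to 1.11 when 1 mouse was left out.

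The promoter of Cd8a was chosen for display after the values of the gene were seen. Ikaros has been found bound at the locus, as said above, but whether it acts on Cd8a through this stretch was not tested. The 250 bases before the start site are from RefSeq, build GRCm38.p6, chr6:71373177-71373426, plus strand, printed 5′ to 3′. Capitals mark the core TGGGAA that Ikaros proteins recognise, here on the opposite strand as TTCCCA, with its first printed base 89 bases before the start site.
Cd8a: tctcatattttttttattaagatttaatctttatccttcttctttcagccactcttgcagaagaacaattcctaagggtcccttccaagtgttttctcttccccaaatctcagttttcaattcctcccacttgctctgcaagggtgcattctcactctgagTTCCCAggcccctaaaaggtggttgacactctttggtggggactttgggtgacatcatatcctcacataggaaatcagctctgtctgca
Both strands were searched for this core and for the RUNX cores TGTGGT and TGCGGT. The Ikaros core was found in 21.6% of 32851 RefSeq promoter windows of this length, the core TGTGGT in 14.0% and TGCGGT in 5.10%. The marked matches do not overlap each other in the printed windows. A match is only a match of letters and does not show binding.

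**Figure D2:**
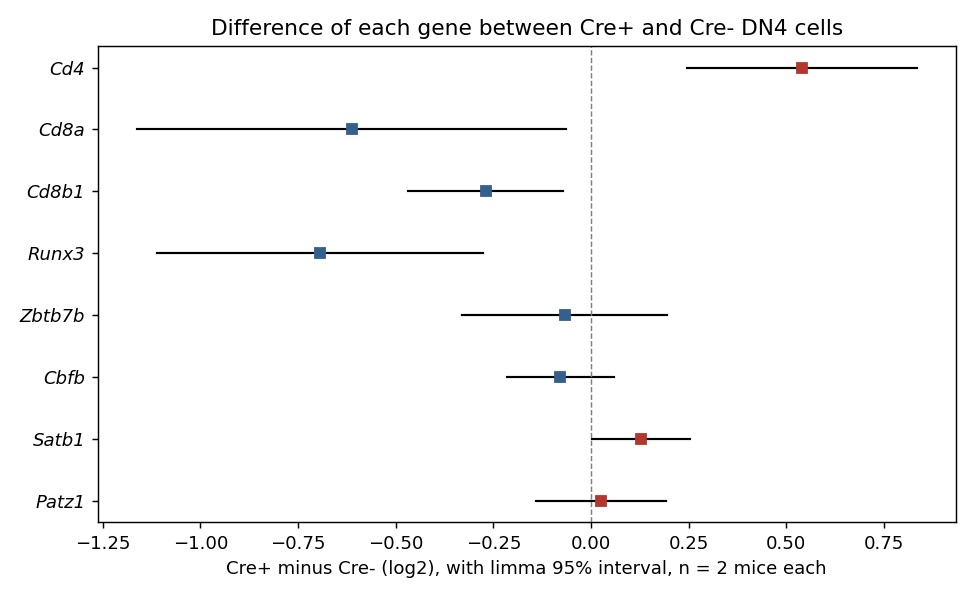
Difference between Cre+ and Cre- mice (log2) for each gene, as squares with 95% intervals from limma as lines, 2 mice in each group. The intervals of Cd4, Cd8a, Cd8b1, Runx3 and Satb1 do not include 0, before any adjustment for the number of probe sets.

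RUNX3 represses Cd4 and supports Cd8 expression in the CD8 lineage. Among the 5 regulator genes it had the most negative difference. Runx3 was at 8.77 (mouse 129) and 8.66 (mouse 135) with Cre+, against 9.19 (mouse 131) and 9.63 (mouse 137) with Cre-. The Cre+ mice lay 0.10 apart and the Cre- mice 0.44 apart, without overlap. The difference was -0.69 (SE 0.16, 95% interval -1.11 to -0.28), or 1.62-fold lower, with an adjusted p of 0.459 in limma over all probe sets and 0.0644 among probe sets with 1 gene symbol. Leaving out mouse 137, the higher of the Cre- mice, gave -0.47, and leaving out mouse 131 gave -0.92. In the single-symbol test, whether Runx3 passed the threshold in fits of 3 mice depended on the mouse left out. Fits without mouse 131 or mouse 137 assume that the lone Cre- mouse varied like the rest.

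Runx3 is transcribed from a distal and a proximal promoter; the array gave 1 value for the gene. Both are printed because the distal one holds cores of RUNX and of Ikaros and the proximal one holds neither in this window. They cover the 250 bases before each start site on the plus strand of GRCm38.p6, from RefSeq, at chr4:135120395-135120644 for the distal and chr4:135152295-135152544 for the proximal promoter. Capitals mark the Ikaros core TGGGAA, 154 bases before the distal start site, and the RUNX core TGTGGT, which reads ACCACA on this strand and lies 134 and 126 bases before it.
Runx3 distal: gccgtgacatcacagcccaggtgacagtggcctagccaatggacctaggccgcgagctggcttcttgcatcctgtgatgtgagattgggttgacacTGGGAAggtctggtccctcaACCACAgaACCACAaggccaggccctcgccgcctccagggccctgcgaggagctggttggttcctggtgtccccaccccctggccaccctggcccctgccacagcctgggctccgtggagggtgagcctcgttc
Runx3 proximal: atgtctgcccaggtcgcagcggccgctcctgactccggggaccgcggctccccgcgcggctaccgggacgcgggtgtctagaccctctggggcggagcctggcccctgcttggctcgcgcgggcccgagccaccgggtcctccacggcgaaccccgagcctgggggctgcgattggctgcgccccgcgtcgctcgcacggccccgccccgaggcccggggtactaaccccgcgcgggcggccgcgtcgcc
RefSeq promoter windows were matched for 6 of the 8 genes, 13 windows in all. No window was available for Cd4 and Cd8b1, so their promoters were not searched. Beside those printed, the Ikaros core was found in 1 of 2 windows of Zbtb7b and 1 of 5 of Satb1, and TGTGGT in the other window of Zbtb7b. The windows of Cbfb and Patz1 held neither.

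Cbfb encodes the subunit that stabilises all RUNX proteins on DNA. It was at 11.47 (mouse 129) and 11.58 (mouse 135) with Cre+, against 11.58 (mouse 131) and 11.63 (mouse 137) with Cre-, and the groups overlapped by a small margin. The difference of -0.08 (SE 0.05, 95% interval -0.22 to 0.06) was smaller than the 0.11 between the Cre+ mice. Runx1, the family member that silences Cd4 in double-negative cells and no member of the set, was chosen after its values were seen. It was at 11.75 (mouse 129) and 11.68 (mouse 135) with Cre+, against 11.57 (mouse 131) and 11.61 (mouse 137) with Cre-, a difference of 0.12 (SE 0.04, adjusted p = 0.715 in limma). Runx1 and Runx3 differed in opposite directions, and neither passed the threshold.

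Zbtb7b, whose product ThPOK opposes Runx3 in lineage choice, was at 6.45 (mouse 129) and 6.32 (mouse 135) with Cre+, against 6.48 (mouse 131) and 6.42 (mouse 137) with Cre-. These values lay below the array medians of 6.85 to 6.88. The difference of -0.07 (SE 0.10) had a 95% interval of -0.33 to 0.20, which leaves room for a modest change in either direction. Patz1 encodes MAZR, a repressor of the ThPOK gene in CD8 cells and a negative regulator of Cd8 in double-negative cells. It was at 10.80 (mouse 129) and 10.74 (mouse 135) with Cre+, against 10.69 (mouse 131) and 10.81 (mouse 137) with Cre-, and the Cre+ values lay inside the range of the Cre- values. Its difference was 0.03 (SE 0.06, 95% interval -0.14 to 0.19), and its sign depended on the mice used.

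Satb1 encodes a chromatin organiser that is abundant in thymocytes and needed for the correct expression of the coreceptor and lineage genes. It was at 12.96 (mouse 129) and 12.92 (mouse 135) with Cre+, against 12.74 (mouse 131) and 12.87 (mouse 137) with Cre-. The groups did not overlap, though mice 135 and 137 differed by little. The difference was 0.13 (SE 0.05, 95% interval 0.00 to 0.25, adjusted p = 0.736 in limma), and it was 0.06 without mouse 131.

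**Figure D3:**
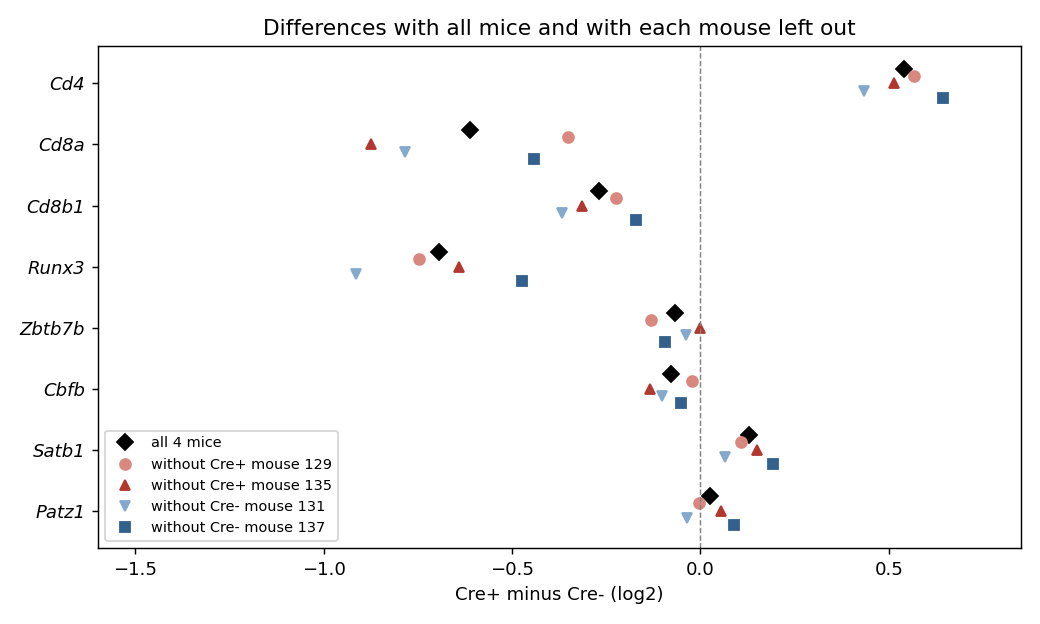
Cre+ minus Cre- (log2) for each gene with all 4 mice (diamonds) and with each mouse left out (other symbols). Cd4 stays between 0.43 and 0.64 and Runx3 between -0.92 and -0.47, Cd8a ranges from -0.87 to -0.35, and Patz1 crosses 0.

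Read against all genes, 5 of the 8 genes had an unadjusted p under 0.05 in limma, 2 higher and 3 lower, against 6.86% of the 19938 genes called at that level (4.12% higher and 2.74% lower). The groups did not overlap for 5 of the 8, against 36.4% of all genes (16.1% higher and 20.3% lower), so separation of 2 from 2 mice was common. A difference of at least 0.5 in size was seen for 3 of the 8, against 1.59% of all genes. The median of the 8 differences was -0.07, against -0.01 over all genes, of which 45.9% had higher means in Cre+ cells. The shares of 6.86% at an unadjusted p under 0.05 and of 45.9% with higher means are those to set beside the lists that follow. These shares describe the set and were not tested, since it was named with earlier results of these data known.

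The transcript of the targeted gene did not pass the test. Ikzf1 was at 12.06 (mouse 129) and 11.99 (mouse 135) with Cre+, against 12.07 (mouse 131) and 12.11 (mouse 137) with Cre-, a difference of -0.07 (SE 0.04, adjusted p = 0.925 in limma). Where its probes lie relative to the deleted part was not analysed here, so this value does not check the labels. The arrays were alike, with pairwise Pearson's r of 0.994 to 0.997 over probe sets (a description, as probe sets are not replicates). The 12 measured genes of T lineage identity had a mean level of 11.34 (mouse 129) and 11.20 (mouse 135) with Cre+, against 11.18 (mouse 131) and 11.22 (mouse 137) with Cre-. Cd44, whose protein is absent from the surface of DN4 cells, was at 5.90 to 6.40 in the 4 mice, below the array medians. Il2ra, the gene of CD25 and also absent from the DN4 surface, was at 11.07 (mouse 129) and 10.71 (mouse 135) with Cre+, against 11.58 (mouse 131) and 10.96 (mouse 137) with Cre-, above the array medians. Levels of different probe sets are not on a common scale and were not set against background, so they do not measure the purity of the sort.

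Further factors that act on the coreceptor genes were described as a list of 24 genes, of which 22 were measured. Of these 15 had higher means and 7 lower, with a median of 0.06, and 2 rose in Cre+ cells in the single-symbol test. Hes1, a Notch-induced repressor reported to act at the Cd4 silencer, was at 11.25 (mouse 129) and 11.24 (mouse 135) with Cre+, against 10.35 (mouse 131) and 10.32 (mouse 137) with Cre-. Ikzf3, the gene of the Ikaros relative Aiolos, was at 11.53 (mouse 129) and 11.44 (mouse 135) with Cre+, against 10.46 (mouse 131) and 10.71 (mouse 137) with Cre-. Their adjusted p-values in limma were 0.000467 and 0.00184 among probe sets with 1 gene symbol and 0.0570 and 0.123 over all probe sets. Tox2, of the TOX family of nuclear proteins, differed by -0.50 (SE 0.13) and the repressor gene Bcl6 by 0.43 (SE 0.12), without passing either test. The list's median was -0.02 without mouse 131.

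Chromatin regulators with roles at the Cd4 and Cd8 loci, among them subunits of the BAF and NuRD complexes, histone deacetylases and enzymes of DNA methylation, were described next. Of 19 measured genes 10 had higher and 9 lower means, with a median of 0.01 (-0.04 without mouse 131), and 0 passed either limma test, with 1 at an unadjusted p under 0.05 over all probe sets. That gene was Tle4, of the Groucho corepressors that RUNX proteins recruit, with a difference of -0.25 (SE 0.09). Dnmt1, the maintenance DNA methyltransferase, differed by 0.10 (SE 0.04), and by 0.06 without mouse 131.

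Genes of the receptor complex and kinases with which the coreceptors work were described as 17 measured genes of 19 listed. Of these 11 had higher and 6 lower means, with a median of 0.03 that was -0.03 without mouse 131 and 0.11 without mouse 137. In the single-symbol test 4 rose and 0 fell. The genes that rose were Cd3d, Cd3g and Cd3e, which encode CD3 chains, and Fyn, which encodes a SRC family kinase beside LCK. Their differences were 0.66 (SE 0.08), 0.37 (SE 0.05), 0.25 (SE 0.04) and 0.42 (SE 0.06), with adjusted p-values of 0.00432, 0.00979, 0.0180 and 0.0320 in limma. None passed over all probe sets. The adhesion receptor gene Cd2, the phosphatase gene Ptprc and the zeta chain gene Cd247, chosen after their values were seen, had lower values in both Cre+ mice without passing either test. Their differences were -0.52 (SE 0.14), -0.16 (SE 0.05) and -0.10 (SE 0.06). Of these genes only Cd247 encodes a chain of the receptor complex. Its unadjusted p was 0.13 in limma over all probe sets, so a fall within the complex was not shown.

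Lineage genes were then described, since Runx3 and ThPOK govern the CD8 and CD4 programmes. Of 14 measured CD8 lineage genes 9 had lower and 5 higher means, with a median of -0.05 (-0.09 without mouse 129), and 1 fell in the single-symbol test. This was Nkg7, a gene of cytotoxic granules, at 8.88 (mouse 129) and 8.91 (mouse 135) with Cre+, against 10.03 (mouse 131) and 9.85 (mouse 137) with Cre- (difference -1.04, SE 0.09, adjusted p = 0.00114 in limma). Itgae, the gene of CD103 and a known RUNX3 target in CD8 T cells, was at 6.27 (mouse 129) and 6.28 (mouse 135) with Cre+, against 6.82 (mouse 131) and 7.46 (mouse 137) with Cre-. Its difference was -0.87 (SE 0.22), with an adjusted p of 0.0792 among probe sets with 1 gene symbol, and it was -0.55 without mouse 137. The granzyme gene Gzma differed by -0.19 (SE 0.03) and Tbx21, the gene of T-bet, by 0.36 (SE 0.13), without passing.

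Of 11 measured CD4 lineage genes 5 had higher and 6 lower means, with a median of -0.03 (0.02 without mouse 135), and 0 passed either limma test, with 2 at an unadjusted p under 0.05. Ctla4, an inhibitory receptor gene, differed by -0.51 (SE 0.13), the interleukin 4 receptor gene Il4ra by -0.44 (SE 0.14) and the costimulatory receptor gene Icos by -0.24 (SE 0.11).

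**Figure D4:**
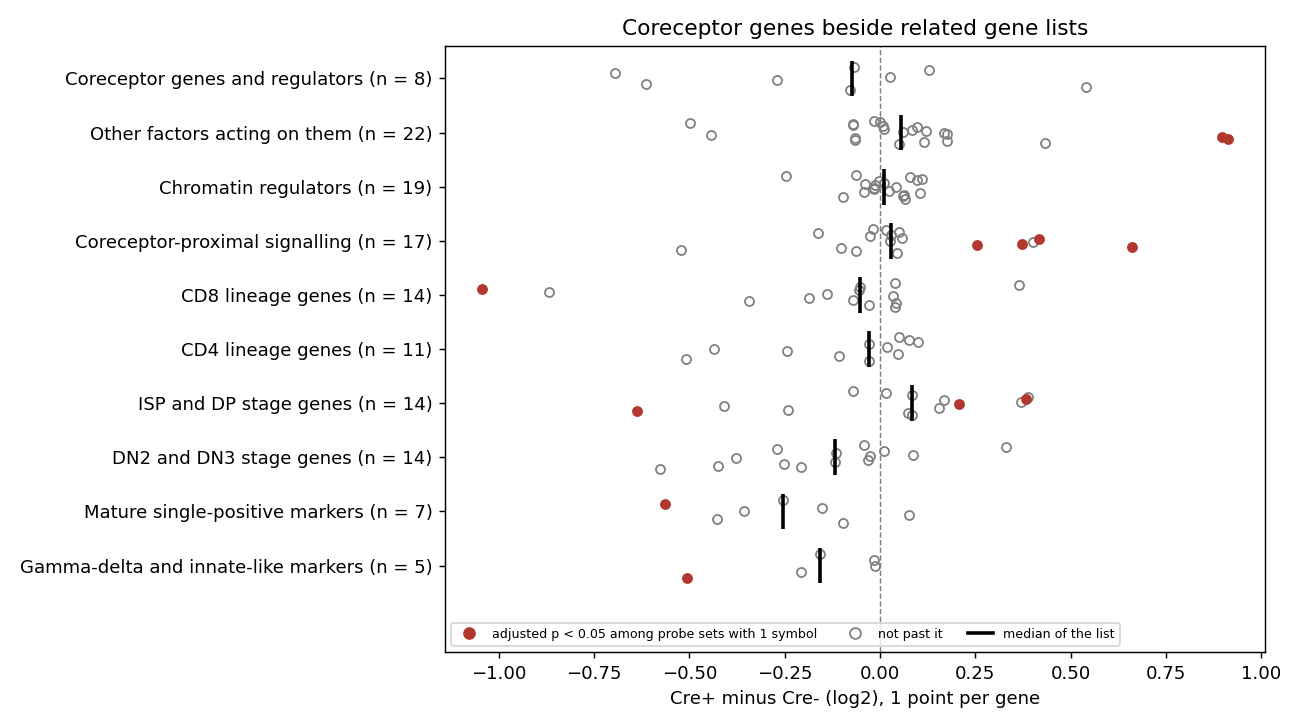
Cre+ minus Cre- (log2) of each measured gene in the coreceptor set and in 9 related lists, with black bars for medians and filled red points for genes with an adjusted p under 0.05 among probe sets with 1 gene symbol. The coreceptor set spreads to both sides of 0 with no gene filled, while the CD3 chains, Fyn, Hes1, Ikzf3, Rag1 and Dntt are filled on the higher side and Nkg7, Ccr9, Ms4a4b and Blk on the lower.

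Genes of the immature single-positive and double-positive stages, which follow DN4 and at which the coreceptors appear, had higher means in 10 of 14 cases (median 0.08). In the single-symbol test, 2 rose and 1 fell. Rag1, the recombinase gene, differed by 0.38 (SE 0.08, adjusted p = 0.0383 in limma) and Dntt, the gene of terminal transferase, by 0.21 (SE 0.03, adjusted p = 0.0275). Ccr9, a chemokine receptor gene, differed by -0.64 (SE 0.08, adjusted p = 0.00743). Cd24a, the gene of the immaturity marker CD24, differed by 0.15 (SE 0.02) and missed the threshold (adjusted p = 0.0505). The list's median was 0.02 without mouse 131 and 0.14 without mouse 137.

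Genes of the earlier DN2 and DN3 stages had lower means in 11 of 14 cases (median -0.12, and -0.18 without mouse 129), and 0 passed either limma test, with 3 at an unadjusted p under 0.05. The difference was 0.33 (SE 0.07) for Ptcra, which encodes part of the pre-TCR, -0.42 (SE 0.10) for the adhesion receptor gene Cd44 and -0.58 (SE 0.14) for the transcription factor gene Bcl11a.

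Markers of other cells that a DN4 sort could hold, and that bear on Cd4, Cd8a and Runx3, were read beside these values. Markers of mature single-positive thymocytes, which have Cd4 or Cd8 on, had lower means in 6 of 7 cases (median -0.26, and -0.11 without mouse 137), and their mean level was 7.10 (mouse 129) and 7.01 (mouse 135) with Cre+, against 7.25 (mouse 131) and 7.37 (mouse 137) with Cre-. Ms4a4b, the marker with the smallest p, fell in the single-symbol test (-0.56, SE 0.09, adjusted p = 0.0254 in limma), and Itgb7 and S1pr1 differed by -0.36 and -0.26. Over the 4 mice Ms4a4b was at 5.39 to 6.02 and S1pr1 at 6.24 to 6.51, below the array medians. Itgb7 was at 7.01 to 7.52, above them. Markers of gamma-delta and innate-like T cells, which can express Runx3 and the CD8 alpha homodimer, were lower in 5 of 5 measured cases of 10 listed (median -0.16, and -0.10 without mouse 135). Their mean level was 7.19 (mouse 129) and 7.15 (mouse 135) with Cre+, against 7.37 (mouse 131) and 7.33 (mouse 137) with Cre-. Blk fell in the single-symbol test (-0.51, SE 0.09, adjusted p = 0.0463 in limma). Sox13 and Il17a differed by only -0.02 and -0.01 and overlapped between the groups, and Trdc, Tcrg-C1 and Tcrg-C2 were not measured. The medians of these lists had the sign of the Cd8a, Cd8b1 and Runx3 differences, opposite to that of Cd4. That sign was not particular to them. Medians were also negative for B cell markers (-0.19), DN2 and DN3 stage genes (-0.12), stromal markers (-0.06) and all genes (-0.01). They were positive for genes of the immature single-positive and double-positive stages (0.08) and for macrophage and granulocyte markers (0.03), among others. The part of these cells in the members' values was not tested.

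Dendritic cells, which can carry CD4 or the CD8 alpha chain, had lower means in 7 of 10 markers (median -0.02, and 0.03 without mouse 137). Their mean level was 6.40 (mouse 129) and 6.50 (mouse 135) with Cre+, against 6.40 (mouse 131) and 6.68 (mouse 137) with Cre-, with Clec9a lowest at a mean of 4.66. H2-Aa and Cd74, of the class II pathway, were highest in mouse 137. H2-Ab1, also of class II and the marker with the highest level, was highest in mouse 135, at 8.42 (mouse 129) and 9.07 (mouse 135) with Cre+, against 8.31 (mouse 131) and 8.73 (mouse 137) with Cre-. Their part in the members' values was not tested. Natural killer markers had a mean level of 4.98 (mouse 129) and 5.004 (mouse 135) with Cre+, against 4.99 (mouse 131) and 4.96 (mouse 137) with Cre-, with 0 of 8 at an unadjusted p under 0.05 in limma over all probe sets and 0 past the adjusted threshold. Of 8 macrophage and granulocyte markers 6 had higher means (median 0.03, and 0.08 without mouse 131), with a mean level of 5.93 (mouse 129) and 6.004 (mouse 135) with Cre+, against 5.85 (mouse 131) and 5.80 (mouse 137) with Cre-. Lyz2, the lysozyme gene, rose in the single-symbol test (1.04, SE 0.18, adjusted p = 0.0206 in limma). B cell markers had lower means in 6 of 7 cases (median -0.19, and -0.01 without mouse 137). The exception was Cd79b, a signalling chain of the B cell receptor and the marker with the highest level, which differed by 0.25 (SE 0.09) without passing either test. Their mean level was 6.10 (mouse 129) and 6.16 (mouse 135) with Cre+, against 6.15 (mouse 131) and 6.44 (mouse 137) with Cre-. Erythroid markers (2 measured) had a median of 0.02 (-0.01 without mouse 137) and stromal markers (7 measured) one of -0.06 (-0.02 without mouse 131). Of the stromal markers 5 had lower and 2 higher means, and 1, Epcam, had an unadjusted p under 0.05 in limma over all probe sets. Epcam was at 7.68 (mouse 129) and 8.08 (mouse 135) with Cre+, against 8.38 (mouse 131) and 8.35 (mouse 137) with Cre-. Its difference was -0.48 (SE 0.15), without passing either adjusted test.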

How the data were processed

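The deposited values are on a log2 scale, as read from their range, with 1 value for each probe set of each array. The submitters' processing notes name RMA as how the authors made them. Labelling took 2 cycles, per the labels' protocols. The sources used here give neither the RMA version nor a genome build or filters. Signal over background was not analysed here. Nothing was normalized again, and 0 sample columns were left unused.

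The platform annotation gave exactly 1 symbol for 21789 probe sets (19938 genes), several for 1621 and listed no gene for 12146. The highest-mean probe set stood for a gene. All 35556 probe sets were fitted with limma 3.58.1 in R 4.3.3 (lmFit, eBayes with an intensity trend, 2 residual and 2.99 prior degrees of freedom), with Benjamini-Hochberg adjustment at 0.05. The single-symbol test is the same model fitted anew on the 21789 probe sets. Its variance estimates differ too, so its p-values change beyond the number of tests. For Hes1 the unadjusted p in limma was 8.01e-06 over all probe sets and 1.18e-07 in the single-symbol test. Differences are Cre+ minus Cre- with moderated standard errors from the fit over all probe sets, also where an adjusted p of the single-symbol test is given. With 2 arrays in each group, no exact two-sided permutation p can be under 0.333.

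The members and lists were chosen with earlier results of these data known. Named beside the members were Ikzf1, at most 4 genes of each list with the smallest p, those past a threshold, the highest or lowest marker of a list, and the 3 genes with profiles nearest to each coreceptor gene. A gene outside this rule is marked where it is named. Alternatives changed the normalization, the filter on dim probe sets, the variance model, array weights and the mice used.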

Additional observations from a re-analysis of the deposited data

How the results depend on the processing

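No paired analysis was possible because the groups share no mouse numbers. Over all probe sets, limma called 0 with each mouse left out (lowest and highest both 0), and likewise after quantile normalization again, cyclic loess, eBayes without trend, robust eBayes and array weights. It called 266 among probe sets with 1 gene symbol, 25 without probe sets under the 25th percentile of mean level, 80 without those under the median and 10 with arrays centred on the median. The 266 became between 138 (without mouse 129) and 480 (without mouse 131) with 1 mouse left out, alternatives added after the data were seen, as were the fits of 3 mice for single genes in this test. The 8 genes passed no threshold under the settings with all 4 mice. With a mouse left out the difference ranged from 0.43 to 0.64 for Cd4, from -0.87 to -0.35 for Cd8a, from -0.37 to -0.17 for Cd8b1, from -0.92 to -0.47 for Runx3, from -0.13 to -0.00 for Zbtb7b, from -0.13 to -0.02 for Cbfb, from 0.06 to 0.19 for Satb1 and from -0.0359 to 0.0883 for Patz1. Among probe sets with 1 gene symbol, whether Cd4, Cd8a, Cd8b1 or Runx3 passed the threshold in such fits depended on the mouse left out. These fits leave 1 mouse in a group, so passing in them is not read as a result. Patz1 changed sign to -0.00272 without mouse 129 and to -0.0359 without mouse 131. H2-Aa ranged from -1.14 (without mouse 131) to 0.00519 (without mouse 137) and Cd74 from -1.04 to 0.0990 likewise. The medians of 9 of 17 lists changed sign under some alternative, among them B cell markers, at 0.25 without probe sets under the median. That setting also gave -0.15 for mature single-positive and 0.53 for macrophage markers. It removed the dim genes of each list, so the B cell value was that of Cd79b alone. The macrophage value was that of Lyz2 and Cd68 only. A mean over several probe sets could not be taken, since each member had 1. The cause of the other shifts was not tested.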

Other observations

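The genes whose profile over the 4 arrays lay nearest to that of each coreceptor gene, among 19937 others, were found by the distance between mean-centred log2 values. For Cd4 these were Nf1, a negative regulator of RAS, at a distance of 0.03, the actin regulator gene Nckap1 at 0.05 and the corepressor gene Atn1 at 0.05. Nf1 was at 9.65 (mouse 129) and 9.74 (mouse 135) with Cre+, against 9.03 (mouse 131) and 9.24 (mouse 137) with Cre-. For Cd8a the nearest was Mir181b-1, a microRNA gene, at 0.18. It was at 8.39 (mouse 129) and 8.82 (mouse 135) with Cre+, against 9.19 (mouse 131) and 9.30 (mouse 137) with Cre-. Arap2 and Fam72a followed at 0.19 each. For Cd8b1 the 3 nearest, Pramel19, Cotl1 and Nol10, lay within 0.02.

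The protein-coding neighbours of the coreceptor genes in the RefSeq annotation were looked at after the members' values were seen. Gpr162, beside Cd4 on chromosome 6, was at 7.77 (mouse 129) and 7.64 (mouse 135) with Cre+, against 7.08 (mouse 131) and 7.45 (mouse 137) with Cre-, a difference of 0.44 (SE 0.15, adjusted p = 0.696 in limma over all probe sets). Lag3, on the other side of Cd4 and the gene of a CD4-related inhibitory receptor, was at 6.32 (mouse 129) and 6.18 (mouse 135) with Cre+, against 6.36 (mouse 131) and 6.43 (mouse 137) with Cre-. Its difference was -0.14 (SE 0.10). Rmnd5a beside Cd8a differed by -0.06 (SE 0.07) and Gm1070 beside Cd8b1 by 0.02 (SE 0.16). Both differences were smaller in size than -0.61 for Cd8a and -0.27 for Cd8b1. The SE of Gm1070 was wide beside the difference of Cd8b1, and whether the neighbours differ from the pair was not tested.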
